A study of Mus musculus with 50 samples.

Results

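The respiratory chain was followed here through 88 genes, 77 encoded in the nucleus and 11 in mitochondrial DNA, out of 55011 gene symbols counted. They were taken by name: nuclear symbols of the Nduf (letters a, b, c, s and v), Sdh, Uqcr, Cox4 to Cox8 and Atp5 series, and mitochondrial symbols of the mt-Nd, mt-Co, mt-Atp and mt-Cytb series. Of 114 symbols that matched, 13 pseudogene symbols (ending in -ps) and 13 symbols with a mean under 1 CPM (the count scaled to a common library total) over all libraries were left out. The 13 low symbols were 11 nuclear genes, among them the tissue isoforms Cox4i2, Cox6a2, Cox7a1 and Cox8b, and the mitochondrial mt-Atp8 and mt-Nd4l. The members comprised 35 nuclear and 6 mitochondrial genes of complex I, 4 nuclear genes of complex II, 8 nuclear genes and 1 mitochondrial gene of complex III, 13 nuclear and 3 mitochondrial genes of complex IV, and 17 nuclear genes and 1 mitochondrial gene of complex V.

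The series holds 50 RNA-seq libraries in 16 groups, all from male mice labelled WT, made from polyadenylated RNA of sorted CD4+ cells. In the thymus (18 libraries, 3 per group) the strain B6.Cg-Foxp3tm1Kuch/J gave 2 progenitors of regulatory T (Treg) cells at day 5, 12 and 49 after birth (D5, D12 and D49). P2 progenitors were CD4+CD8-CD25-Foxp3+, and P1 progenitors were CD4+CD8-CD25+Foxp3-. In the periphery (32 libraries) Foxp3-GFP+ Treg cells of a strain with the allele Foxp3tm3(HBEGF/GFP)Ayr on a B6.129(Cg) background (suffix J) were sorted at week 20 from visceral adipose tissue (VAT, 4 libraries per arm), ear skin, liver, lung and spleen (3 per arm each). This strain carries a toxin receptor and GFP at the Foxp3 locus, which is active in Treg cells. Per the series text, littermates with and without the receptor (DTR+ and DTR-) were given diphtheria toxin at 12 weeks on 3 consecutive days to deplete Treg cells and rested for 8 to 9 weeks. The arms are titled DT and PBS, and the labels do not tie an arm to a DTR genotype, so they are called DT-labelled and PBS-labelled here. Each library came from 500 to 1000 double-sorted cells. Whether replicates are different mice is not labelled, and the p-values therefore speak only of the variation among these libraries, which may be technical.

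The respiratory chain passes electrons from NADH (complex I) and succinate (complex II) through complex III and cytochrome c to oxygen (complex IV), pumps protons across the inner mitochondrial membrane, and drives ATP synthase (complex V). Mitochondrial DNA encodes core membrane subunits of complexes I, III, IV and V, while all of complex II and most other subunits are made from nuclear genes and imported, so both genomes must supply each mixed complex. Treg cells and their thymic precursors use this machinery in oxidative metabolism.

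The sequences below show which mitochondrial genes share sequence with other annotated transcripts. The nuclear genome holds copies of mitochondrial DNA, and a read that matches both may be dropped or split. The first 60 bases of mt-Co2 (chrM:7013-7072, plus strand) and mt-Atp6 (chrM:7927-7986, plus strand) are found whole in transcripts of Gm28661 and Gm10925 on chromosome 1, and are in capitals over that shared length. The first 60 bases of mt-Nd1 (chrM:2751-2810, plus strand) and mt-Cytb (chrM:14145-14204, plus strand) are found in no transcript of another annotated gene. All are from GRCm38 with GENCODE M21 transcripts, 5′ to 3′.
mt-Co2: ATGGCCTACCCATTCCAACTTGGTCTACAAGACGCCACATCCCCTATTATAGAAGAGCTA
mt-Atp6: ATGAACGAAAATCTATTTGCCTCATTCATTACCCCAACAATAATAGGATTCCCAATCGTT
mt-Nd1: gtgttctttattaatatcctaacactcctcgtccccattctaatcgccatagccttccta
mt-Cytb: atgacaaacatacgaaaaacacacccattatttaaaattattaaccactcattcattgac

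Over whole transcripts, the share of 50-base windows also present in another annotated gene was 100% for mt-Co2, 99.9% for mt-Co3, 99.5% for mt-Atp6, 98.8% for mt-Nd4l and 98% for mt-Nd3. It was 62.2% for mt-Nd4, 51.1% for mt-Co1, 8.2% for mt-Nd2, 7.6% for mt-Nd5 and 0% for mt-Nd1, mt-Cytb, mt-Nd6 and mt-Atp8. The 5 genes over 90% had the lowest levels of the 13 mitochondrial messenger genes apart from mt-Atp8, a short gene with 0 shared windows at a mean of 0.28 CPM. Their counts are uncertain. Only annotated transcripts were searched, so 0 shared windows does not show that a gene was counted without loss, mt-Atp8 included. The single mitochondrial genes described at length below are mt-Nd1, mt-Co1, mt-Cytb and mt-Nd5, while each median over mitochondrial members gives every tested gene equal weight, the uncertain ones included. The 4 genes together held 92.0% to 95.9% of the mitochondrial members' counts in a library. Per kilobase of exon, mt-Nd1 averaged 3429 CPM, mt-Co1 2032, mt-Cytb 1834 and mt-Nd5 799 over all libraries. On the same per-kilobase scale the nuclear Cox4i1 (a regulatory subunit of complex IV) averaged 390.6 CPM, Atp5a1 (the alpha subunit of ATP synthase) 343 and Atp5b (its catalytic beta subunit) 268. Of the 77 nuclear members, 32 shared no window and 14 shared over 25%, the highest being 84.8% for Atp5l (subunit g of ATP synthase).

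**Figure D1:**
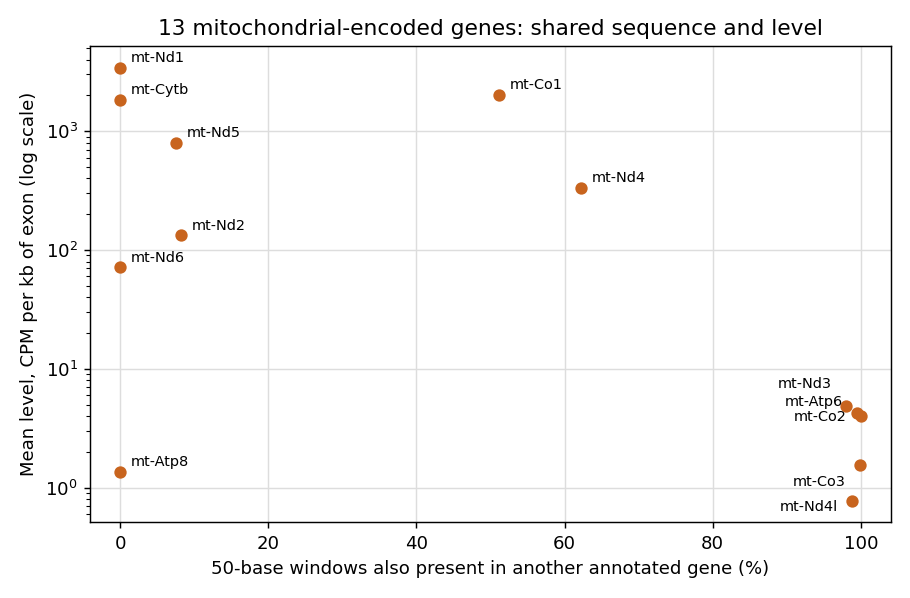
Share of a gene's 50-base windows found in another annotated gene (x axis, %) against its mean level over 50 libraries (y axis, CPM per kb of exon, log scale) for 13 mitochondrial messenger genes. The 5 genes above 90% sit at the bottom right, and mt-Nd1, mt-Cytb and mt-Co1 at the top.

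The promoters of 3 nuclear members are shown because these genes recur below: Cox6a1 (the common isoform of a complex IV subunit, chr5:115348909-115349208, minus strand), Ndufs7 (a core iron-sulfur subunit of complex I, chr10:80249199-80249498, plus strand) and Cox7a2l (a factor that helps complexes III and IV form supercomplexes, chr17:83514284-83514583, minus strand). The windows run from 250 bases before to 50 after the RefSeq start (GRCm38.p6 table). Capitals mark matches on either strand to 3 motifs: GCGC then any base (N) then TGCGC, bound by nuclear respiratory factor 1 (NRF1); CCGGAAG, bound by ETS factors such as GABP; and AAGATGGCG, bound by YY1.
Cox6a1: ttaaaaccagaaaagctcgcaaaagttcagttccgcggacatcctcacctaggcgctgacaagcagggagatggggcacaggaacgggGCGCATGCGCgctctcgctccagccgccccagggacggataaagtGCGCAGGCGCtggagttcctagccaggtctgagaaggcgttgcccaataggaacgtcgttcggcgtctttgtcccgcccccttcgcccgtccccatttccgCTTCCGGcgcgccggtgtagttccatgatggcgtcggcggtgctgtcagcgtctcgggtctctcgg
Ndufs7: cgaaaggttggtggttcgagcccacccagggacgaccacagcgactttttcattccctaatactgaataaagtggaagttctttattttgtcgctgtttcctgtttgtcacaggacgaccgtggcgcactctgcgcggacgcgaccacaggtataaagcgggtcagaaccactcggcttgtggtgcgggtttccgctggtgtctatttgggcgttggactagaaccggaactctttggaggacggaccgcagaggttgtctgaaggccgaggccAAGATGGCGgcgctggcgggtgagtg
Cox7a2l: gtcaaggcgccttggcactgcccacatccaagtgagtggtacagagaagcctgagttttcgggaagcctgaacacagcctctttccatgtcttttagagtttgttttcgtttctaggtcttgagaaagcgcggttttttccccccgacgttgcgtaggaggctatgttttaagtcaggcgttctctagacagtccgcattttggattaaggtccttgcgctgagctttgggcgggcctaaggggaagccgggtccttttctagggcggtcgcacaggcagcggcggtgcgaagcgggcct

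Cox6a1 held the NRF1 letters at 2 places and the ETS letters near its start, Ndufs7 held the YY1 letters just after its start, and Cox7a2l held none of the 3 motifs in this window. Among 65 nuclear members with a promoter in the table, 17 (26.2%) held the NRF1 letters, against 5.19% of all 27025 genes in it. A gene counted if any of its listed promoters matched, and the 27025 genes were not limited to expressed ones. The ETS letters were in 17 members (26.2%, against 9.93% of those genes) and the YY1 letters in 7 (10.8%, against 1.64%). At least 1 of the 3 motifs was in 35 members. A match is a description of letters and not a bound site.

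Library totals ran between 2521078 and 6981037 counts. Foxp3, the factor that defines Treg cells, stood at 278 to 852 CPM in P2 and 5.06 to 19.5 CPM in P1 libraries. Il2ra (CD25) stood at 11.1 to 48.4 CPM in P2 and 102 to 174 CPM in P1 libraries. Both differed in the direction of the sort gates. Cd4, part of every gate, was uneven. In P1 it stood at 359 to 382 CPM at D12, against 666 to 722 CPM at D5 and 920 to 1030 CPM at D49. In P2 it stood at 270 to 854 CPM at D49, against 727 to 779 CPM at D5 and 804 to 863 CPM at D12. The part of this in the results was not tested. Foxp3 stood at 119.8 to 499 CPM in the periphery. Some libraries stood apart. Genes with a count numbered 27910 to 31480 in the P1 D12 libraries, against 20750 to 21280 at P1 D5, and genes too low to test held 0.55% to 1.12% of P1 D12 counts. P2 D49 replicates 2 and 3 showed the same pattern, with 27730 and 28760 genes and 1.01% and 1.35% of counts. Spleen PBS replicate 1 had the lowest Foxp3 of the peripheral libraries and the highest nuclear respiratory sum among them. Total counts of called members that touch P2 D49 replicates 2 and 3 or spleen PBS replicate 1 are given with and without them. The P1 D12 libraries are their whole group, so no comparison could be made without them.

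The nuclear members took 0.909% to 1.96% of a library's counts (median 1.22%), and the mitochondrial members 0.585% to 2.04% (median 1.02%). The nuclear sum was highest in P1 progenitors. P2 libraries held 14740, 15230 and 14860 CPM at D5, against 19110, 19090 and 19570 CPM in P1 libraries. At D12 the P2 sums were 12720, 13130 and 13280 CPM, against 19520, 18480 and 19470 CPM in P1. At D49 the P2 sums were 11440, 11950 and 13280 CPM, against 16500, 16730 and 16020 CPM in P1. P2 lay below P1 in every library at each age, with no overlap. In the periphery, apart from spleen PBS replicate 1 at 16210 CPM, every nuclear sum lay between 9087 and 12850 CPM, with both ends in ear skin and the whole range below every P1 library. Thymus and periphery differ in strain, age and sort, so this gap cannot be told apart from those differences.

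The mitochondrial sum also lay lower in P2 than in P1 at D5 and D12, but not at D49. At D5 it was 12780, 13800 and 13120 CPM in P2, against 14430, 16770 and 15810 CPM in P1, without overlap. At D12 it was 11390, 11920 and 11340 CPM in P2, against 18250, 18330 and 20430 CPM in P1, again without overlap. At D49 it was 11640, 13660 and 17840 CPM in P2, against 12380, 15090 and 13650 CPM in P1, so the groups overlapped. In the periphery ear skin libraries stood at 12120, 12830 and 8511 CPM in DT-labelled and 11320, 11020 and 6204 CPM in PBS-labelled libraries, a range that covers nearly all peripheral values. VAT held 5850 to 7673 CPM in DT-labelled and 6617 to 7917 CPM in PBS-labelled libraries. Over all libraries the mitochondrial sum was 0.488 to 1.34 times the nuclear sum.

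**Figure D2:**
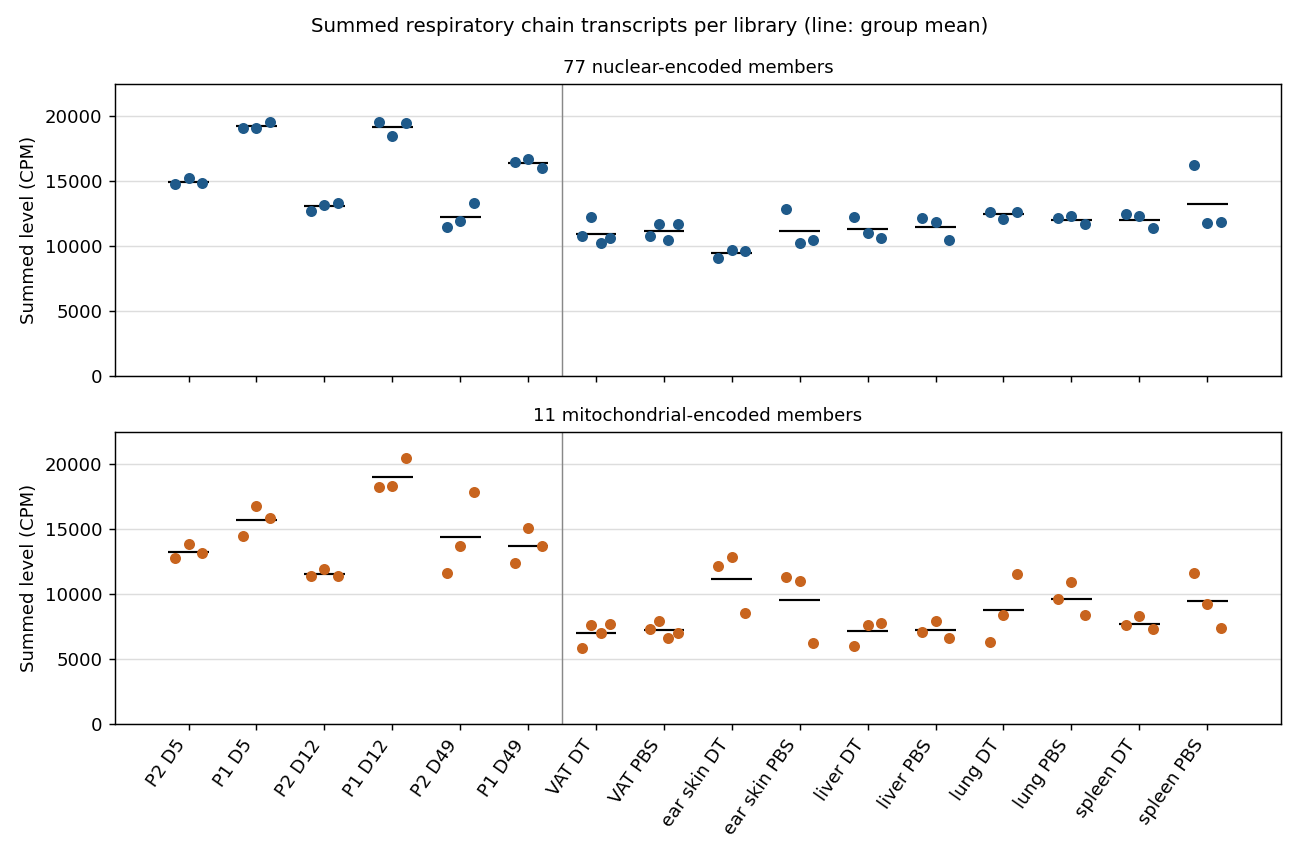
Summed CPM (y axes) of the 77 nuclear members (top) and the 11 mitochondrial members (bottom) in each library (points) of 16 groups (x axis), with the group mean as a line. The nuclear sum of P2 lies below that of P1 at each age, and spleen PBS replicate 1, at 16210 CPM, lies above all other peripheral libraries.

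P2 against P1 progenitors asks how the Foxp3+CD25- and CD25+Foxp3- steps differ at each age. Most nuclear members that changed were lower in P2, a few were higher, and the mitochondrial genes split. At D5, 40 of 87 tested members passed an adjusted p of 0.05 (edgeR quasi-likelihood test, adjusted over all genes), 3 higher and 37 lower in P2, where 15.4% of all 14696 genes passed (6.8% higher, 8.57% lower). At D12, 69 passed, 3 higher and 66 lower, against 41.3% of all genes (17.6% higher, 23.7% lower). At D49, 38 passed, 3 higher and 35 lower, against 29.4% of all genes (16.5% higher, 12.9% lower). Genes at like levels were called more often than all genes. Of 4704 genes above 50 CPM, 687 were higher and 829 lower at D5. These counts were 1349 and 1400 at D12, and 812 and 1120 at D49. At D49 the share of members called was near that of genes above 50 CPM, though most called members were lower. The median log2 fold change of nuclear members was -0.35 at D5, -0.60 at D12 and -0.34 at D49, beside -0.003, -0.08 and 0.10 over all genes tested. That of the mitochondrial members was -0.23, -0.10 and -0.07.

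By complex, D12 was the broadest. Complex I had 31 of 35 nuclear genes called (30 lower), complex II 4 of 4, complex III 8 of 8 (7 lower), complex IV 11 of 13 (10 lower) and complex V 12 of 17, all lower. At D12, 41.3% of all genes and 2749 of 4704 genes above 50 CPM were called. At D49, 13 of 17 complex V genes were lower, while 12 of 35 in complex I were called (11 lower). The complex I share at D49 was near the 29.4% of all genes and below that of genes above 50 CPM (1932 of 4704).

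The largest fall was in Atp5g1, 1 of 3 genes for the c subunit whose ring turns in ATP synthase (chr11:96068852-96075670, minus strand, GRCm38). At D12 it stood at 55.2, 58.0 and 49.4 CPM in P2, against 184, 143 and 199.8 CPM in P1. Every P2 library lay below every P1 library, and the fold change was -1.68 ± 0.19 log2 (SE, n = 3 each, edgeR adjusted p = 8.38e-07). It was also lower at D5 (-0.87) and D49 (-1.05). Atp5g3, which encodes the same mature c subunit, stood at 305, 326 and 327 CPM in P2 against 502, 486 and 538 CPM in P1 at D5 (-0.67), and at 242, 178 and 133 CPM against 407, 389 and 376 CPM at D49 (-1.04). At D12 the difference in Atp5g3 (-0.34) missed the threshold with an adjusted p of 0.0592 in the edgeR test. Atp5g2, the third gene, stayed at 18.5 to 38.0 CPM as a group mean and passed at no age between P2 and P1.

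Several accessory subunits of complexes I and III fell with it. Ndufa12 stood at 39.3, 39.4 and 38.5 CPM in P2 D12, against 110, 93.0 and 114 CPM in P1 D12, a change of -1.42 ± 0.21 log2 (edgeR adjusted p = 2.55e-05). Ndufa5 stood at 45.9, 51.3 and 55.1 CPM in P2, against 126, 127 and 135 CPM in P1 (-1.33 ± 0.18). Neither group pair overlapped, and both genes were also lower at D5 (-0.92 and -0.81) but did not pass at D49. Uqcrq, a small subunit of complex III, was lower in P2 at all 3 ages, by -1.02, -1.16 and -0.94 log2. Of Ndufa12's windows 26.2% also occur in other genes, while Ndufa5 and Uqcrq share none.

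The catalytic head of ATP synthase was lower too. Atp5b stood at 857, 719 and 582 CPM in P2 D49, against 1640, 1732 and 1652 CPM in P1 D49. All P2 values lay far below the P1 range, at -1.18 ± 0.11 log2 (edgeR adjusted p = 8.27e-08), and Atp5b was also lower at D5 (-0.67) and, in a call lost without any one of the 6 libraries, at D12 (-0.28). Atp5e, the epsilon subunit of the central stalk, stood at 77.4 ± 17.0 CPM in P2 D49 against 172 ± 12.6 CPM in P1 D49 (SD, n = 3 each), a change of -1.11. Uqcr11 of complex III changed by -1.13 in the same comparison. With P2 D49 replicate 1 as the single P2 D49 library, the D49 changes were -0.74 for Atp5e, -0.60 for Atp5g3 and -1.75 for Atp5g1, all still called. In complex IV, Ndufa4 was lower in P2 at all 3 ages (-0.57, -0.86 and -0.65).

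Complex II, which has no mitochondrial gene and also serves the tricarboxylic acid (TCA) cycle, moved with the rest. All 4 genes were lower in P2 D12: the flavoprotein Sdha by -0.51, the iron-sulfur subunit Sdhb by -0.86 and the membrane anchors Sdhc and Sdhd by -0.78 and -0.70. Sdhd was lower at every age (-0.56 at D5, -0.59 at D49), Sdhb also at D49 (-0.54) and Sdha also at D5 (-0.33, a call lost without any one of the 6 libraries). The Sdhb and Sdhd calls at D49 were lost with the compared libraries alone. At D49 Sdha differed by -0.04 and did not pass.

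**Figure D3:**
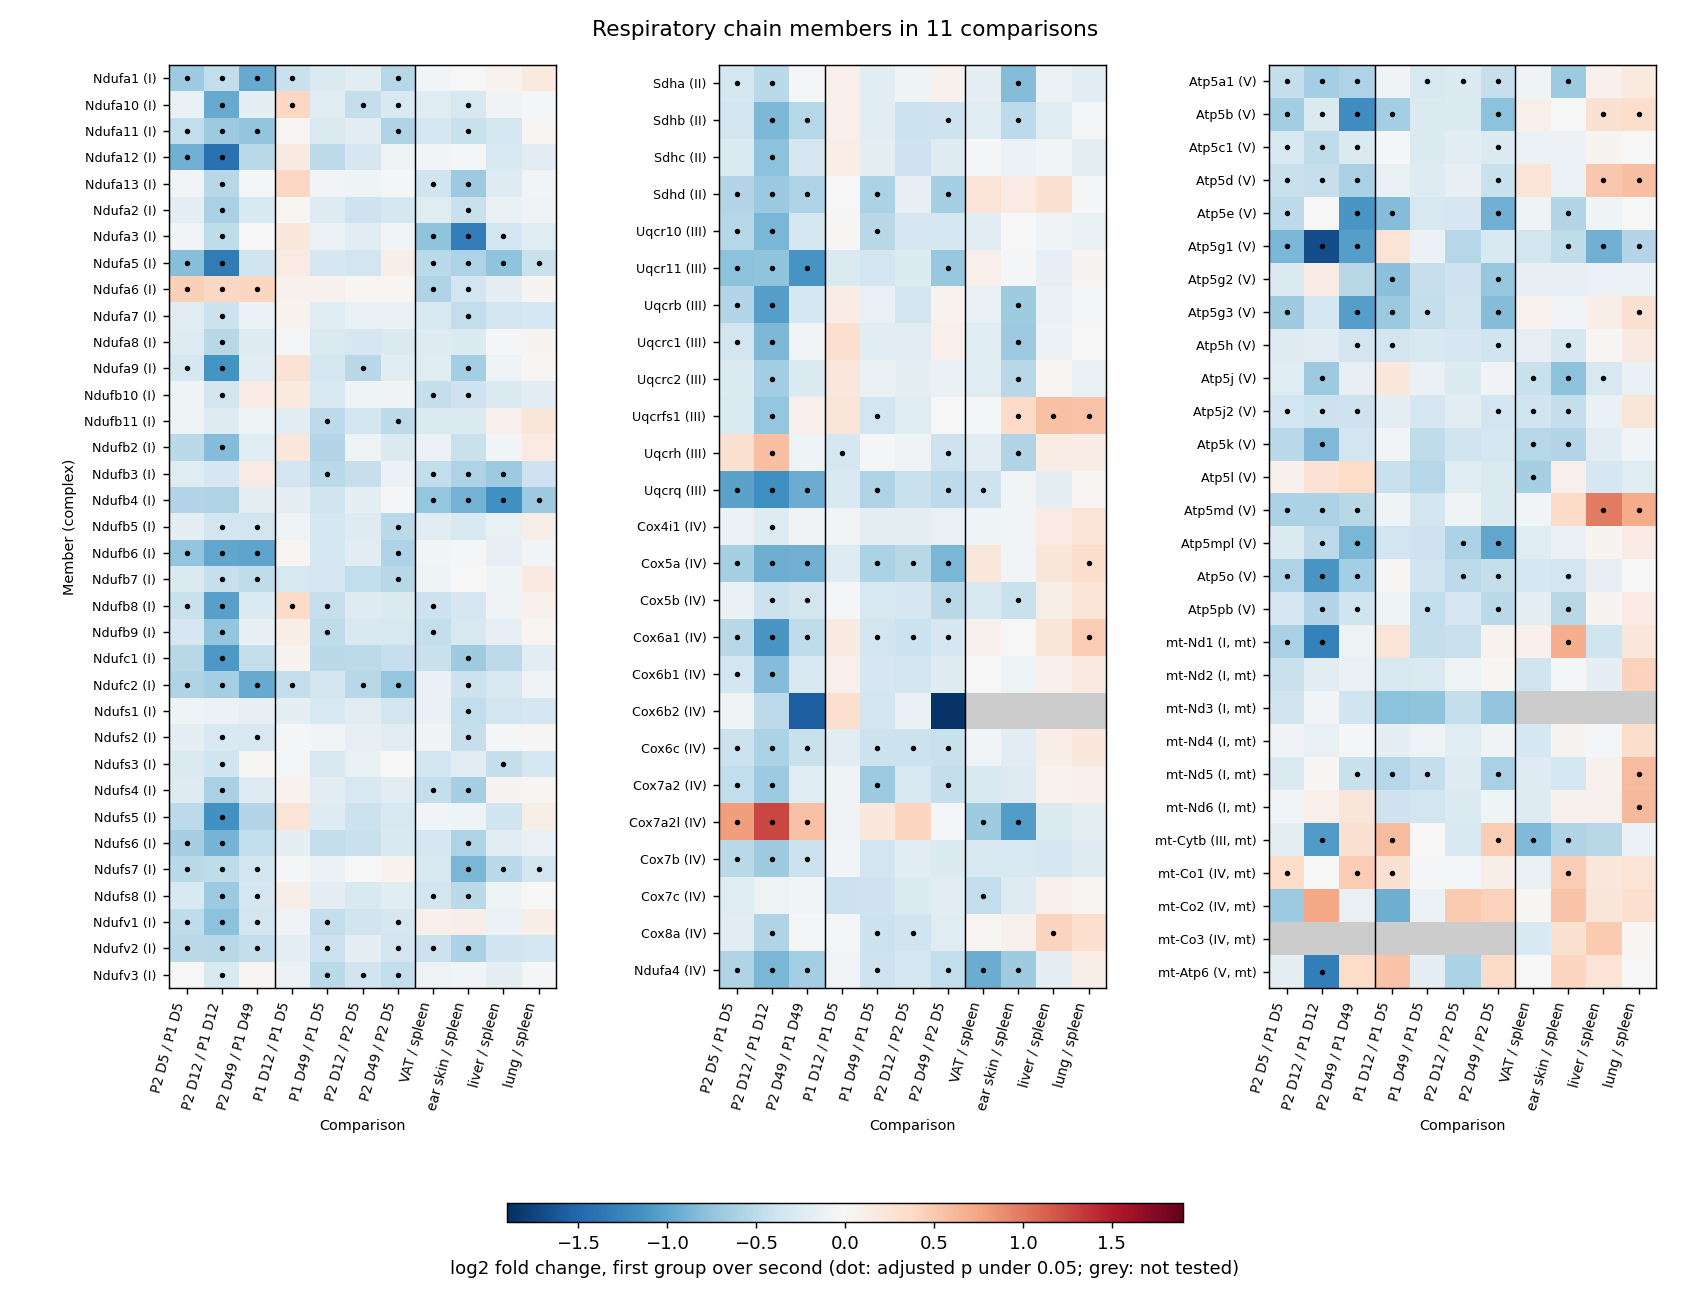
Colour gives the log2 fold change of each tested member (one line per gene, its complex in brackets) in 11 comparisons (x axis, first group over second); a dot marks an edgeR adjusted p under 0.05 and grey a gene not tested. Blue prevails in the P2 against P1 columns, and Cox7a2l and Ndufa6 are red in all 3 of them.

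Against this run of lower genes, Cox7a2l and Ndufa6 were higher in P2 at all 3 ages. Cox7a2l stood at 311, 355 and 348 CPM in P2 D5, against 176, 199 and 209 CPM in P1 D5. At D12 it stood at 446, 452 and 489.6 CPM in P2, against 181, 199 and 205 CPM in P1. At D49 it stood at 437, 318 and 253 CPM in P2, against 219, 245 and 239 CPM in P1. The groups did not overlap at any age, and the fold changes were 0.80, 1.27 and 0.56 log2 (edgeR adjusted p = 0.000481, 1.07e-06 and 0.00748). The D49 call was lost in 4 alternatives, with edgeR adjusted p between 0.0530 and 0.0945, among them those without P1 D49 replicate 1 (0.0530) or without P2 D49 replicate 1 (0.28 log2, 0.0600). Of the Cox7a2l windows 17.7% are shared with other genes, chiefly Gm6969. Ndufa6, an accessory subunit of complex I, averaged 143 against 105 CPM at D5, 152 against 116 CPM at D12 and 150.4 against 117 CPM at D49 in P2 against P1 (0.45, 0.40 and 0.41 log2). Its D12 call was lost with the covariate for counts in untested low genes (0.27, edgeR adjusted p = 0.119). Its D49 call was lost without P1 D49 replicate 1 (0.37, 0.0508), with the compared libraries alone (0.44, 0.101) and with no filter on low counts (0.19, 0.491). Uqcrh, the hinge subunit of complex III, passed at D12 and at no other age, at 335 ± 18.7 CPM in P2 against 229 ± 4.90 CPM in P1 (0.57).

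The mitochondrial genes did not move as a block. mt-Co1, the catalytic core of complex IV (chrM:5328-6872), stood at 3427, 3650 and 3358 CPM in P2 D5, against 2710, 2808 and 2736 CPM in P1 D5. At D49 it stood at 3269, 3838 and 4490 CPM in P2, against 2564, 3130 and 2783 CPM in P1. Both differences passed, at 0.34 and 0.48 log2 (edgeR adjusted p = 0.0141 and 0.000676), and at D12 it differed by 0.01. The D5 call was lost without P1 D5 replicate 1 or P2 D5 replicate 2 (edgeR adjusted p = 0.0517 and 0.0673). The D49 call was lost with no filter on low counts (0.25 log2, 0.0770) and with the compared libraries alone (0.0594). Of the mt-Co1 windows 51.1% also occur in other annotated genes, and the part of this in its level was not tested. mt-Nd1, a core membrane subunit of complex I (chrM:2751-3707), ran the other way: it stood at 3342, 3414 and 2974 CPM in P2 D12, against 7655, 7598 and 8862 CPM in P1 D12. Every P2 value lay far below the P1 range, at -1.29 ± 0.16 log2 (edgeR adjusted p = 5.81e-06), and mt-Nd1 was also lower at D5 (-0.62, a call lost without P1 D5 replicate 2 or P2 D5 replicate 1) and not called at D49 (-0.10). mt-Cytb, the core of complex III (chrM:14145-15288), was lower in P2 at D12 (-1.08), and mt-Nd5 of complex I at D49 (-0.43, and -0.23 and not called without P2 D49 replicates 2 and 3). The shared-sequence mt-Atp6 passed at D12 with group means of 2.04 CPM in P2 and 5.24 CPM in P1, a call lost in 9 of 13 alternatives. mt-Nd2, mt-Nd3, mt-Nd4, mt-Nd6 and mt-Co2 passed at no age between P2 and P1, and mt-Co3 was too low to test in the thymus.

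**Figure D4:**
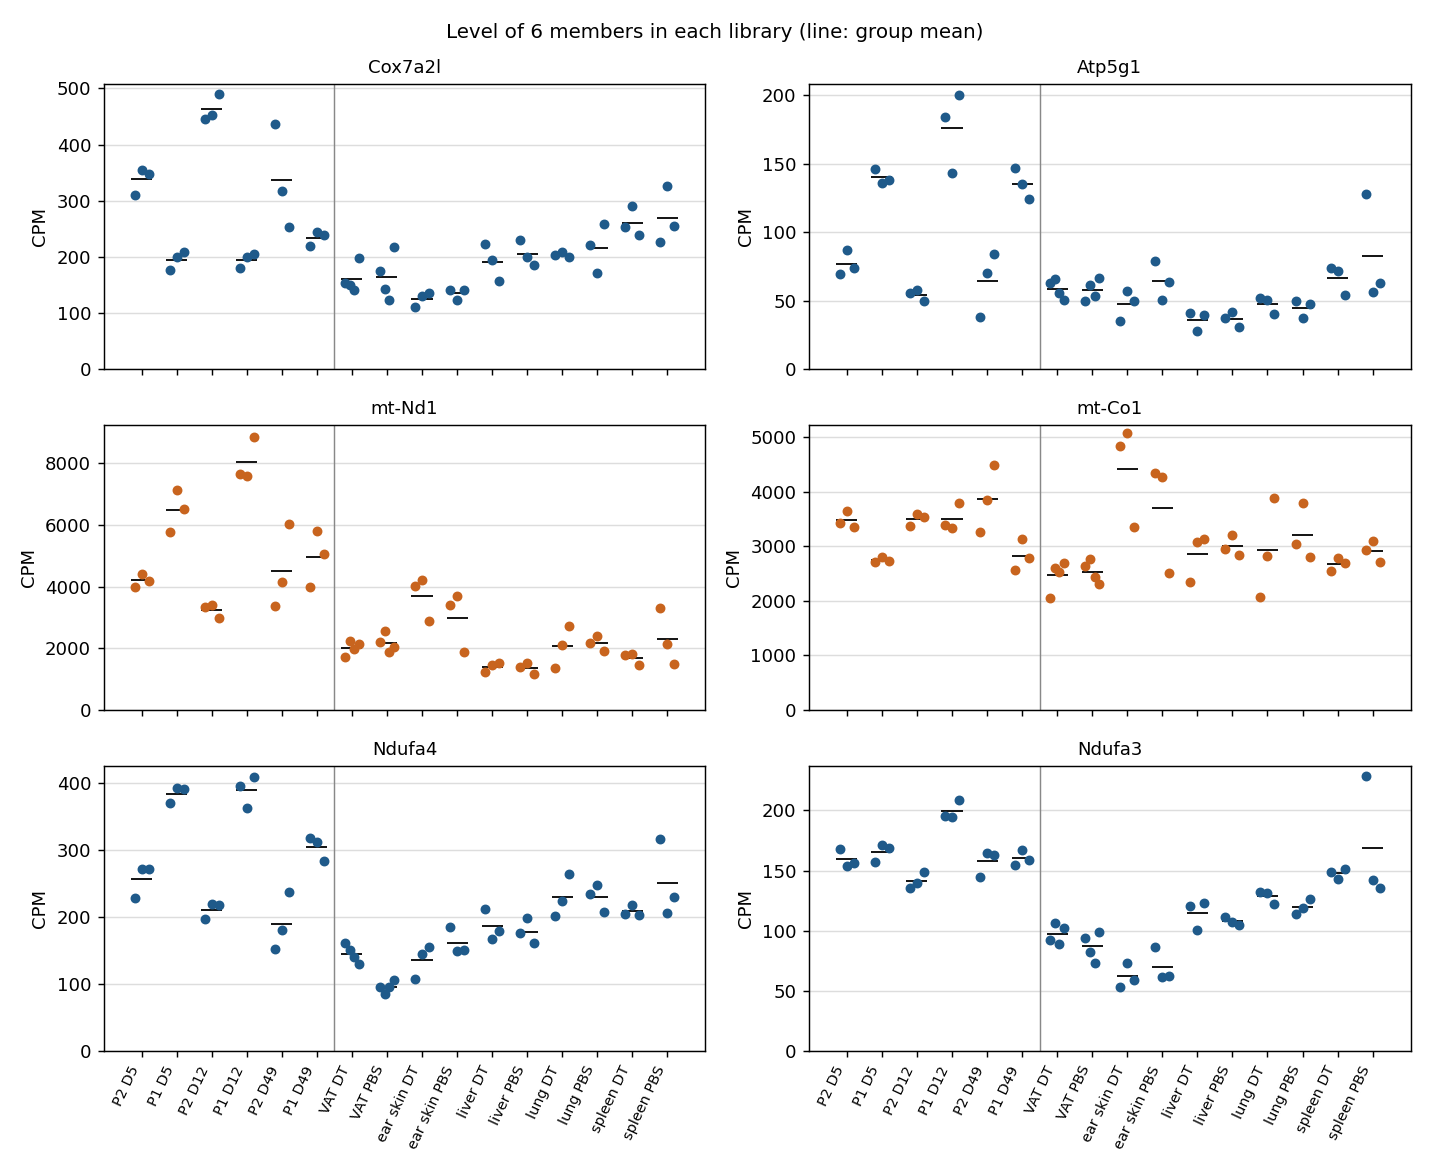
CPM (y axes) of 6 members in each library (points, blue for nuclear and orange for mitochondrial genes) of 16 groups (x axis), with the group mean as a line. Cox7a2l and mt-Co1 show P2 above P1 at D5 and D49 while Atp5g1 and Ndufa4 show P2 below P1, and Ndufa4 in VAT lies at 129.3 to 161 CPM in DT-labelled and 85.3 to 106 CPM in PBS-labelled libraries.

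Other signals moved with the P2 to P1 difference. The 6 markers of CD8+ and double-positive thymocytes summed to 37.9 to 47.1 CPM in P2 against 56.4 to 62.8 CPM in P1 at D5, to 26.4 to 32.9 against 76.6 to 82.0 CPM at D12, and to 36.8 to 55.3 against 100 to 108 CPM at D49, with Ptcra at 0 at D5 and D49. The 7 endothelial markers summed higher in P2 at every age (295 to 395 against 176 to 258 CPM over the 3 ages), with Cldn5 at 0 at D49. Single genes of a list can go against its sum. The number of genes going each way is not given for the lists here, so a sum may rest on few genes. B cell markers summed to 11.25 to 18.2 CPM in P2 against 8.28 to 10.6 CPM in P1 at D5. At D49 they summed to 10.65 to 33.3 against 4.70 to 7.54 CPM, and at D12 the groups overlapped. Macrophage markers summed to 27.9 to 151 CPM in P2 D49 and 6.498 to 33.8 CPM in P1 D49, with none of the 8 genes at 0. The part of these in the results was not tested. At D5 the count was 26 without P1 D5 replicate 3. At D49 it was 14, all lower, when the P2 D49 and P1 D49 libraries were fitted alone. Without P2 D49 replicates 2 and 3 it was 41 (3 higher, 38 lower), with a mitochondrial median of 0.08, but that fit leaves 1 P2 D49 library and assumes that it varies like the other groups. Adding a covariate for the fraction of counts in untested low genes, an alternative chosen after seeing the data, left 58 called at D12 (2 higher, 56 lower). In bulk samples, fewer cells of a type and less RNA per cell cannot be told apart.

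The P2 to P1 difference itself was compared between ages. From D5 to D12 it became more negative in 4 of 87 tested members, a share near the 3.71% of all 14696 genes that differed. The 4 were Ndufa10 by -0.84, Ndufa9 by -0.80 and Cox6a1 by -0.58 log2, with mt-Cytb by -0.89. These 4 genes were named after their values were seen. From D5 to D49, 0 members differed by the edgeR test and 0.374% of all genes did.

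With age, changed nuclear members mostly fell in both progenitors. In P2, 11 members passed at D12 against D5, all lower (5.19% of all genes passed, 1.82% higher and 3.36% lower), and 36 at D49 against D5, 1 higher and 35 lower (25.8% of all genes passed, 14.7% higher and 11.1% lower). In P1, 21 passed at D49 against D5, all lower (10.8% of all genes, 4.16% higher and 6.64% lower), and 13 at D12 against D5, 4 higher and 9 lower (18.4% of all genes, 10.2% higher and 8.2% lower). The P1 D12 share of members called was thus below that of all genes, with the lower share near it. Of 4704 genes above 50 CPM, 450 passed in P2 at D12 and 1504 at D49. In P1, 1124 of them passed at D12 and 883 at D49. The nuclear median was -0.30 and -0.31 in P2 at D12 and D49, and -0.04 and -0.32 in P1, beside all-gene medians of 0, 0.08, 0.001 and 0. Both ages share the D5 libraries. The P2 count at D49 was 7 with the compared libraries fitted alone, and 36 without P2 D49 replicates 2 and 3, a fit that again rests on 1 P2 D49 library. The other counts moved with single libraries: the P1 D12 count was 5, 6 and 8 without P1 D5 replicates 1, 2 and 3 and 7 without P1 D12 replicate 3. The P1 D49 count was 12, 12 and 8 without those P1 D5 libraries and 8 without P1 D49 replicate 1 or 3, and the P2 D12 count was 2 to 5 without any one of its 6 libraries.

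Cox5a, a subunit of complex IV, fell in both populations. In P2 it stood at 138, 132 and 139 CPM at D5, at 93.8, 99.4 and 100 CPM at D12, and at 82.1, 62.5 and 83.2 CPM at D49. No value at D12 or D49 reached the D5 range, and the changes from D5 were -0.53 and -0.87 log2 (edgeR adjusted p = 0.00657 and 1.39e-05), the D12 call being lost without P2 D12 replicate 1. In P1 it fell by 0.59 on the log2 scale at D49, while at D12 the difference from D5 was -0.24 and did not pass. Of its windows 32% are shared with other genes. Atp5mpl, a small membrane subunit of ATP synthase, stood at 148, 152 and 162 CPM in P2 at D5, at 108, 108 and 100 CPM at D12, and at 94.1, 75.6 and 67.9 CPM at D49. Its values at the later ages lay below those at D5 without overlap (-0.60 and -0.99), and in P1 it did not pass at either age.

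Of the 9 members called lower in P1 at D12, 5 were nuclear ATP synthase genes. Atp5b stood at 1299, 1258 and 1312 CPM in P1 D12, against 1913, 1932 and 1961 CPM in P1 D5 (-0.65 ± 0.11 log2). Atp5e (-0.82), Atp5g2 (-0.80) and Atp5g3 (-0.70) fell in the same comparison, the Atp5g2 call being lost without P1 D5 replicate 1 or 2 or P1 D12 replicate 3. In contrast mt-Cytb rose to 4614, 4624 and 5139 CPM in P1 D12, against 2714, 3198 and 3107 CPM in P1 D5 (0.61), and mt-Co1 (0.28), Ndufa10 (0.39) and Ndufb8 (0.36) were also called higher. Of 13 alternatives, Ndufb8 lost its call in 9, including each that left out 1 library, and mt-Co1 in 7, including 5 of the 6 that left out 1 library. Ndufa10 lost it in 3 and mt-Cytb in 2, among them those without P1 D5 replicate 2 for Ndufa10 and P1 D5 replicate 1 for mt-Cytb. mt-Nd5 stood at 1691, 1841 and 1639 CPM in P1 D12 against 2285, 2510 and 2387 CPM in P1 D5 (-0.54), and fell also in P1 D49 (-0.45) and P2 D49 (-0.61).

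The P1 D12 split between higher and lower genes depended on scaling. DESeq2's size factors used in edgeR gave 7 higher and 6 lower, and the covariate for counts in untested low genes gave 3 calls, all lower. The nuclear median was 0.03 with those size factors. Marker sums of other cell types were also higher in P1 D12 than in P1 D5. Fibroblast markers summed to 10.8 to 16.3 CPM against 0.80 to 4.81 CPM, all 7 genes higher. Hepatocyte markers summed to 24.8 to 33.4 against 7.68 to 11.1 CPM with Apoa1 at 0, and how many of them were higher is not given. The part of these lists was not tested.

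In P1 at D49 the largest falls were Cox7a2 (the common isoform of a complex IV subunit) by 0.69 on the log2 scale, at 177 ± 18.2 CPM against 273 ± 17.8 CPM at D5, then Sdhd (-0.60), Cox5a and Uqcrq (-0.58). The Sdhd call was lost without P1 D49 replicate 3 and the Uqcrq call without P1 D5 replicate 3. In P2 at D49 they were Atp5mpl, Atp5e (-0.92), Cox5a and Atp5g3 (-0.82). mt-Cytb passed as higher in P2 D49 (0.47), though its libraries at 2607, 3407 and 5250 CPM overlapped the P2 D5 range of 2557 to 2718 CPM, and the difference was -0.01 without P2 D49 replicates 2 and 3. Markers of other cells moved with these D49 comparisons. Macrophage markers summed to 27.9 to 151 CPM in P2 D49 against 2.08 to 9.25 CPM in P2 D5 (8 of 8 higher, none at 0), mesothelial markers to 0.864 to 11.5 against 0 to 0.617 CPM (6 of 6 higher), and hepatocyte markers to 20.4 to 87.7 against 4.73 to 13.8 CPM (4 of 8 higher, Apoa1 and Apoc3 at 0). In P1 the markers of CD8+ and double-positive thymocytes summed to 100 to 108 CPM at D49 against 56.4 to 62.8 CPM at D5 (3 of 6 higher, Ptcra at 0) and NK cell markers to 16.9 to 21.4 against 4.25 to 5.12 CPM (3 of 6 higher, none at 0). Their part in the results was not tested.

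In the periphery, each tissue was set against spleen over both arms (6 libraries each, 8 for VAT), with spleen shared by the 4 comparisons. In ear skin Treg cells most called members were lower. The summed nuclear level averaged 9462 CPM in DT-labelled ear skin, the lowest of all groups, and 11170 CPM in PBS-labelled ear skin, beside 10950 and 11160 CPM in VAT. In ear skin 43 of 86 tested members passed, 3 higher and 40 lower, where 42.2% of all 17731 genes passed (21.4% higher, 20.8% lower). The nuclear median was -0.35 and the mitochondrial median 0.18, beside 0.11 over all genes tested and -0.24 over 4275 genes above 50 CPM, of which 718 were higher and 1772 lower. The share of members called was thus near that of all genes and below that of genes at like levels. In VAT 21 passed, all lower (22% of all genes passed, 11.5% lower), with a nuclear median of -0.23 beside -0.09 over all genes. In lung 13 passed, 9 higher and 4 lower (27.3% of all genes), and in liver 13, 5 higher and 8 lower (27.4%), with nuclear medians of 0.01 and -0.11 beside 0.02 and -0.03. The share of members called was near that of all genes in VAT and below it in lung and liver. Of the 4275 genes above 50 CPM, 1500 passed in VAT, 1887 in lung and 1890 in liver. Against these genes at like levels the share of members called was lower in each of these tissues.

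Spleen PBS replicate 1 weighed on all 4 counts. Without it 28 members passed in ear skin (6 higher, 22 lower), 7 in VAT (2 higher, 5 lower), 20 in lung (all higher) and 15 in liver (11 higher, 4 lower). The nuclear medians were then -0.19 in ear skin, 0.01 in VAT, 0.20 in lung and 0.07 in liver, beside 0.23, 0.003, 0.07 and 0.02 over all genes. Its removal turned the majority in liver to higher genes and left lung with no lower one. The VAT count was also 7 without spleen DT replicate 4, 9 without replicate 5 and 8 without replicate 6, and 12, 10 and 11 without VAT PBS replicates 1 and 3 and VAT DT replicate 5. The lung count was 7 or 8 without spleen DT replicates 4 or 6, lung PBS replicates 1 or 2, or lung DT replicates 5 or 6. DESeq2's size factors moved the all-gene median in ear skin from 0.11 to 0.26 and the nuclear median to -0.18.

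In ear skin 21 of 35 nuclear genes of complex I were lower and none higher. Complex III had 5 of 8 called (4 lower), complex V 9 of 17 (all lower) and complex IV 3 of 12. The share called in complex I was near that of genes above 50 CPM, of which 2490 of 4275 passed. These counts include spleen PBS replicate 1, without which the total fell from 43 to 28. Ndufa3, a small accessory subunit of complex I (chr7:3617373-3620327, plus strand), was the sharpest. It ran between 53.2 and 86.4 CPM (median 62.0) in ear skin, against 135 to 228 CPM (median 146) in spleen. The ranges did not overlap, and the change was -1.32 ± 0.14 log2 (n = 6 each, edgeR adjusted p = 8.92e-10). The core subunit Ndufs7 ran between 81.2 and 111 CPM in ear skin, against 136 to 217 CPM in spleen (-0.87). Sdha ran between 282 and 379.7 CPM in ear skin, against 490.4 to 596 CPM in spleen (-0.83), and Sdhb was also lower (-0.50, and -0.23 and not called without spleen PBS replicate 1) while Sdhc (-0.11) and Sdhd (0.16) did not pass. Cox7a2l, higher in P2 progenitors, ran between 110.3 and 141 CPM in ear skin, against 226 to 327 CPM in spleen (-1.06 ± 0.13), again without overlap.

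Ear skin's mitochondrial genes were not lower as a set. mt-Nd1 ran between 1883 and 4225 CPM (median 3543), against 1447 to 3315 CPM (median 1799) in spleen, and mt-Co1 between 2514 and 5076 CPM (median 4305), against 2552 to 3090 CPM (median 2748). Both passed (0.69 and 0.49), although the lowest ear skin library, PBS replicate 3, lay among or below the spleen libraries for each. mt-Cytb was lower (-0.58), with spleen PBS replicate 1 at 4191 CPM above the other spleen libraries at 1300 to 1989 CPM, and without that library it differed by -0.24 and did not pass. That call was also lost in 3 other fits with 1 library left out (spleen DT replicate 5, ear skin PBS replicate 3 or ear skin DT replicate 6) and with DESeq2's size factors, DESeq2's test or the compared libraries alone. Ear skin libraries also held keratinocyte markers at 18.4 to 29.2 CPM against 5.21 to 12.0 CPM in spleen (7 of 8 higher) and fibroblast markers at 17.5 to 32.5 against 1.39 to 9.55 CPM (6 of 7 higher), none at 0, and the part of these was not tested.

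In VAT the member furthest below spleen was Ndufa4, a subunit of complex IV despite its complex I name (chr6:11900292-11907497, minus strand). It ran between 85.3 and 161 CPM (median 118) in VAT, against 203 to 317 CPM (median 212) in spleen. No VAT library reached the spleen range, at -0.94 ± 0.12 log2 (n = 8 and 6, edgeR adjusted p = 8.13e-08). Ndufa3 (-0.77), mt-Cytb (-0.84) and Cox7a2l (-0.67) were lower too, each without overlap. Without spleen PBS replicate 1 these 4 genes were still called, mt-Cytb at -0.44. The 6 mesothelial markers summed to 29.4 to 169 CPM in VAT against 5.17 to 10.1 CPM in spleen, with 1 of the 6 higher in the mean and none at 0, and their part was not tested.

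Lung and liver shared a few calls side by side. Atp5md, a small membrane subunit of ATP synthase, ran between 50.4 and 77.8 CPM (median 73.8) in liver, against 32.2 to 49.9 CPM (median 37.2) in spleen (0.99), and was also higher in lung (0.70). Atp5d, the delta subunit of the central stalk, was higher in lung (0.57) and liver (0.52). Atp5g1 was lower in lung (-0.56, and -0.27 and not called without spleen PBS replicate 1) and liver (-0.91, and -0.60 without it), and Ndufb4 of complex I in liver, at 4.85 to 9.37 CPM against 11.7 to 39.0 CPM (-1.16). Cox6a1 was higher in lung, at 194 ± 20.96 CPM against 152 ± 7.08 CPM (0.49). mt-Nd5 (0.60) and mt-Nd6 (0.62) were higher in lung with overlapping ranges, the mt-Nd6 call being lost without spleen DT replicate 4, lung PBS replicate 1 or lung DT replicate 6, and no mitochondrial gene passed in liver. Hepatocyte markers, with none of 8 at 0, summed to 166 to 434 CPM in liver and 97.4 to 301 CPM in lung, against 3.38 to 9.31 CPM in spleen. How many of the 8 genes were higher is not given, so these sums may rest on few of them. Their part was not tested.

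The DT-labelled and PBS-labelled arms were compared within each tissue. The comparison is between arms as titled, since the labels do not tie them to the DTR genotype. No member passed in any of the 5 tissues by the edgeR test, where 0.116% of all genes passed in VAT (0.0414% higher, 0.0746% lower), 0.403% in ear skin and 0% in liver, lung and spleen. At an unadjusted p under 0.05 there were 7 members in ear skin, 1 in VAT, 1 in spleen and 0 in liver and lung, and DESeq2 called 1 member, in VAT.

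That member was Ndufa4. It stood at 161, 151, 141 and 129.3 CPM in the 4 DT-labelled VAT libraries, against 95.7, 85.3, 95.6 and 106 CPM in the 4 PBS-labelled ones. The arms did not overlap, and the difference was 0.60 ± 0.12 log2 with an edgeR adjusted p of 0.0954. The adjusted p was 0.00198 with DESeq2 and 0.0216 with no filter on low counts in edgeR, and 0.214 with all peripheral libraries in a single edgeR fit. Ndufa4 shares no 50-base window with another gene. The 6 mesothelial markers summed to 29.4 to 62.5 CPM in DT-labelled and 107 to 169 CPM in PBS-labelled VAT libraries, although 5 of the 6 genes were higher in the DT-labelled mean. The 7 endothelial markers summed to 97.2 to 142 CPM in DT-labelled and 61.4 to 96.8 CPM in PBS-labelled libraries (5 of 7 higher), none of either list at 0, and their part was not tested. Ndufa4 differed by -0.21 in ear skin, 0.07 in liver, 0.02 in lung and -0.30 in spleen, with overlap in each.

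In ear skin 68 of 76 nuclear members were below 0 and 8 of 9 mitochondrial members above 0 between the arms, with medians of -0.17 and 0.21 beside -0.003 over all genes. Atp5a1 had the smallest adjusted p there (0.327, edgeR), at 538, 595 and 517 CPM in DT-labelled and 979.8, 689 and 629.7 CPM in PBS-labelled libraries, and this set of signs was not tested. In spleen the medians were -0.23 and -0.24, and 0.05 and -0.12 without spleen PBS replicate 1. Medians in VAT (-0.01 and 0.01), liver (0.02 and 0.03) and lung (0.06 and -0.15) lay nearer 0.

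**Figure D5:**
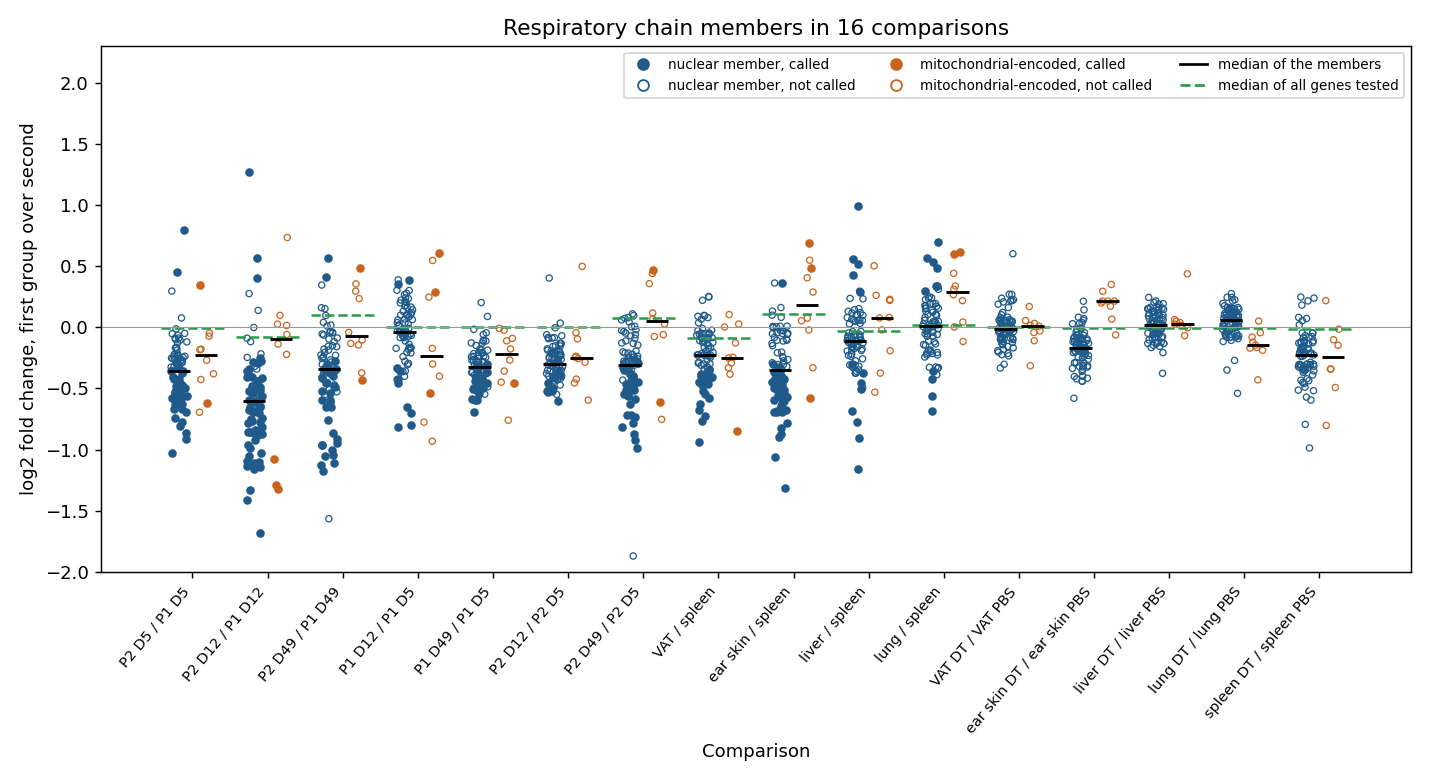
Each circle is the log2 fold change (y axis) of a tested member in 16 comparisons (x axis, first group over second), filled where the edgeR adjusted p is under 0.05, blue for nuclear and orange for mitochondrial members; black lines are their medians and the dashed green line the median of all genes tested. The nuclear median is lowest for P2 against P1 at D12 (-0.60), and no circle is filled in the DT against PBS comparisons.

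Several subunits have isoforms from separate genes. Cox4i1 stayed between 543 and 684 CPM as a group mean in all 16 groups, while its alternative Cox4i2 was under the 1 CPM limit. Cox6b1 averaged 187 to 327 CPM by group and the testis form Cox6b2 0.15 to 3.7 CPM. Cox6a1, Cox7a2 and Cox8a, the common forms, were members, and the muscle forms Cox6a2, Cox7a1 and Cox8b were all under the limit, as was Ndufa4l2, the alternative of Ndufa4.

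Lists of genes that serve the chain are read beside the shares of all genes called in P2 against P1, 15.4% at D5, 41.3% at D12 and 29.4% at D49. The TCA cycle list had 0 higher and 5 lower of 17 genes at D5, 1 and 11 at D12, and 0 and 7 at D49, among them Mdh2 (-0.51, -0.79 and -0.31), the malate dehydrogenase of the cycle. Assembly factors had 0 and 3 of 43 at D5, 1 and 18 at D12, and 2 and 6 at D49, near or below the share of all genes at each age, with Ndufaf4, which helps build complex I, lower at each age (-0.93, -1.42 and -0.77). Cytochrome c, carriers and related proteins had 0 and 9 of 15, 1 and 9, and 0 and 11: Cycs, cytochrome c itself, averaged 36.7 against 67.2 CPM at D5, 29.5 against 68.1 CPM at D12 and 25.5 against 51.5 CPM at D49.

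Genes that handle mitochondrial DNA and RNA had 0 higher and 7 lower of 26 at D5, 2 and 7 at D12, and 0 and 6 at D49, above the share of all genes at D5 and below it at D12 and D49. Fastkd2, an RNA-binding protein of mitochondria, was lower at each age (-1.18, -1.82 and -0.84), while Polg2, an accessory subunit of the mitochondrial DNA polymerase, was higher in P2 D12 (1.23). Tfam, which packages and transcribes mitochondrial DNA, was higher in P2 at D12 (0.46) and not called at D5 (-0.12) or D49 (-0.15). The 12 regulators had 0 higher and 2 lower at D5, 3 and 3 at D12, and 0 and 3 at D49, and Myc was lower in P2 at all 3 ages (-0.58, -0.63 and -0.56). Tfam fell from D5 in P1 at D12 (-0.86) and D49 (-0.54) and in P2 at D49 (-0.57).

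In ear skin against spleen, where 42.2% of all genes passed, the same lists had 0 higher and 7 lower of 17 (TCA cycle), 1 and 14 of 26 (mitochondrial DNA and RNA), 0 and 18 of 43 (assembly), 0 and 5 of 11 (regulators) and 3 and 4 of 15 (cytochrome c and carriers), with Tfam at -0.90 and Myc at -1.25. Of 43 assembly factors, 0 were higher and 9 lower in VAT, 0 and 15 in liver and 1 and 12 in lung, where 22%, 27.4% and 27.3% of all genes passed. Polrmt, the mitochondrial RNA polymerase, was lower in liver (-0.99), lung (-0.67) and ear skin (-0.47), and Slc25a3, the mitochondrial phosphate carrier, was higher, at 1708 CPM in liver and 1400 CPM in lung against 702 CPM in spleen. Ppargc1b was lower in lung (-1.02) and ear skin (-0.81), and Ppargc1a was called in no comparison and too low to test in the periphery.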

How the data were processed

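Counts were measured by RNA-seq in 50 libraries. The deposited table holds whole-number read counts per gene symbol, which the authors made with STAR 2.7.3a and featureCounts on mm10, per the submitters' processing notes. For the annotation, strand setting, read length and multiply mapped reads, details were not given in the sources used here. Levels are CPM of the library total. Tests used edgeR 4.0.16 in R 4.3.3 (TMM scaling, filterByExpr with a minimum count of 10 and total of 15, robust quasi-likelihood F-test, Benjamini-Hochberg adjustment over all genes), on 18 thymus libraries together, 32 peripheral libraries together for tissues, and each tissue alone for its arms. The standard error is the log2 fold change divided by the root of F. DESeq2 1.42.0 was an alternative. Fits were checked on simulated counts. Members and gene lists were chosen with earlier results of these data known. Named genes were called members of at least 10 CPM whose groups did not overlap (up to 4 per direction and comparison), the mitochondrial genes, isoform sets, Sdh subunits and each complex's most abundant gene. No comparison had every correlation between deviations of same-numbered libraries over 0.1, so numbers were not treated as pairs in the main fits. In DT-labelled liver against spleen the same-numbered correlations (0.039 to 0.107) still lay above the others (-0.108 to 0.0283). Whether same-numbered libraries share a mouse is not labelled. Sequences came from GENCODE M21 and RefSeq tables.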

Additional observations from a re-analysis of the deposited data

Results flagged for a closer look

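The P2 to P1 difference changed between D5 and D12 in 4 of 87 tested members by an interaction term in the thymus model (edgeR quasi-likelihood test, adjusted over 14696 genes). This share was near the 3.71% of all genes that passed. All 4 became more negative at D12, and these genes were named after their values were seen. mt-Cytb changed by -0.89 log2 (adjusted p = 0.0251): it stood at 2096, 2322 and 2309 CPM in P2 against 4614, 4624 and 5139 CPM in P1 at D12, while at D5 it stood at 2557, 2718 and 2643 CPM in P2 against 2714, 3198 and 3107 CPM in P1. Ndufa10, an accessory subunit of complex I, changed by -0.84 (adjusted p = 0.00334), with 166, 163 and 192 CPM in P2 against 341, 338 and 352 CPM in P1 at D12. Ndufa9, another accessory subunit of complex I, changed by -0.80 (adjusted p = 0.00928), with 102, 86.7 and 92.6 CPM in P2 against 199, 204 and 221 CPM in P1 at D12. Cox6a1 changed by -0.58 (adjusted p = 0.0312), with 157, 166 and 167 CPM in P2 against 368, 357 and 346 CPM in P1 at D12. All 3 libraries of P1 D12 stood apart in the number of genes detected, and the part of that in these differences was not tested. No library of the VAT groups lay far from its group among 14 sets of values tested.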

How the results depend on the processing

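Counts of called members are given here where they moved by over 1.5 times or the majority turned. With no filter on low counts they were 6 for P1 D12, 6 for P1 D49 and 4 for P2 D12 against D5, 19 for P2 against P1 at D5, 8 for lung and 6 for VAT against spleen, and 1 for VAT DT against PBS. With the compared libraries fitted alone they were 23 (13 higher, 10 lower) for P1 D12, 36 for P1 D49, 37 for P2 D12 and 7 for P2 D49 against D5, 14 for P2 against P1 at D49, 24 for ear skin and 11 for VAT. DESeq2's size factors gave 13 (7 higher, 6 lower) for P1 D12 and 12 (7 higher, 5 lower) for liver. DESeq2's own test gave 18 for P2 D12 against D5, 15 (9 higher, 6 lower) for liver and 1 for VAT DT against PBS. The covariate added after seeing the data gave 3 for P1 D12. Without mitochondrial counts in library sizes VAT against spleen had 12. The cause was not tested in any of these.

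With 1 library left out at a time, counts ran 5 to 11 (P1 D12), 8 to 15 (P1 D49), 2 to 5 (P2 D12) and 24 to 50 (P2 D49) against D5. They ran 26 to 32, 57 to 65 and 26 to 52 for P2 against P1 at D5, D12 and D49, and 7 to 20 for lung, 9 to 17 for liver (15, 11 of them higher, without spleen PBS replicate 1), 28 to 47 for ear skin and 7 to 22 for VAT against spleen. Between arms they stayed at 0. With the replicate number as a block, VAT against spleen had 9 called members, and no other count moved by over 1.5 times. No paired analysis was possible between DT and PBS libraries because the arms share no replicate number. The summed nuclear level of P1 D5 was 19560 when scaled to the counts of nuclear genes alone. Of 850 values of named genes under alternatives, 769 kept direction and call, 81 lost the call and 0 reversed. These cover only 59 gene and comparison pairs, picked from the same data as called, without overlap and largest. The tally therefore cannot measure how stable the other calls are.

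The limits are 3 or 4 libraries a group, each from few cells, PCR reads without molecular identifiers, and a table that does not say how multiply mapped reads were counted.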
